A study of Sus scrofa with 24 samples.

Results

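The small heat shock proteins of muscle were read here through 8 genes, HSPB1, HSPB2, HSPB3, HSPB6, HSPB7, HSPB8, CRYAB and BAG3, the last of which is not itself a small heat shock protein but the co-chaperone that works with HSPB8. Members were all probe sets whose platform annotation holds exactly 1 gene symbol and whose symbol is 1 of these 8. All 8 genes were present among the 6765 genes so annotated, with 11 probe sets of the 23935 tested. CRYAB, HSPB6 and BAG3 had 2 probe sets each and the other 5 genes had 1. The brightest probe set over all arrays stands for a gene, and the dimmer one is described beside it.

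The samples were total RNA from 24 offspring of German Landrace gilts, a pig breed, whose dams had all received a gestational high protein diet, so that no group on another diet is compared here. They fell into 4 stages with 6 animals each: a fetal stage at 94 days post conception (94 dpc) and postnatal stages at 1, 28 and 188 days (dpn). Only 3 gilts supplied the offspring of a stage; which animals share a dam is not in the labels, so the p-values treat all 6 as independent and measure only the spread between these animals. RNA was read on Affymetrix Porcine Genome arrays, 1 per animal, as a signal, a scaled linear intensity, for each probe set.

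Small heat shock proteins bind unfolding proteins without using ATP and hold them in a state that HSP70 can refold or pass on for degradation. Striated muscle is rich in them, and they associate with actin, desmin and titin, filaments under mechanical load. HSPB8 joins BAG3, HSP70 and the ubiquitin ligase STUB1 in chaperone-assisted selective autophagy, which clears damaged filamin from the Z-disc, and HSPB2 and HSPB3 form a complex of their own.

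The sample labels name liver while the series title names muscle, and the markers were checked first. All 10 measured skeletal muscle markers of 12 had stage means above background, a signal of 74.7 set by control probe sets, at every stage. Their summed signal was 202370.4 (animal 5) to 301710.0 at 94 dpc and 366562 to 614440.4 at the later stages. On every array it was at least 2.45 times the summed signal of 11 hepatocyte markers. The hepatocyte sum was nevertheless not at 0, with medians of 4197 to 24822 by stage. At 188 dpn it was 35137 to 211898 in animals 1 to 3, against 1332 to 2444 in the other 3 animals. It was 7960 to 59104 in fetuses, 2859 to 31961 at 1 dpn and 3156 to 7686 at 28 dpn. Fetuses 1 and 2, at 42532 and 59104, thus lay above animal 3 of 188 dpn (35137). The part of the hepatocyte signal in the stage differences was not tested. Animals 1 to 3 of 1 dpn stood apart in the 5′ to 3′ signal ratio of the control transcript EF1A, a sign of RNA length, with 0.0963 to 0.135 against 0.67 to 0.703 in the other 3. This ratio also set the fetal arrays apart, at 0.988 to 1.05 in all 6 against 0.512 to 0.703 in every other postnatal animal, so it moved with each comparison to 94 dpc, and its part in those differences was not tested. The same ratio of GAPDH was 0.78 to 0.87 in fetuses, 0.424 to 0.616 and 0.907 to 0.996 in the same newborn groups, and 0.614 to 0.736 at 28 and 188 dpn. These are bulk samples, in which fewer cells of a type and less RNA per cell cannot be told apart.

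Of the 11 probe sets, 10 differed between stages by the limma F test, in which 52.3% of all tested probe sets passed. The exception was HSPB2 (adjusted p = 0.262). By their brightest probe sets the members followed several courses. HSPB7 and HSPB6 peaked at 1 dpn, where the dimmer HSPB6 probe set was lowest. HSPB8 was higher at each successive stage, and BAG3 rose, fell and rose again. HSPB1 and CRYAB rose at 1 dpn and from 28 to 188 dpn, with a difference between that did not pass. HSPB2 did not pass in any pair of stages in the deposited scaling.

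**Figure D1:**
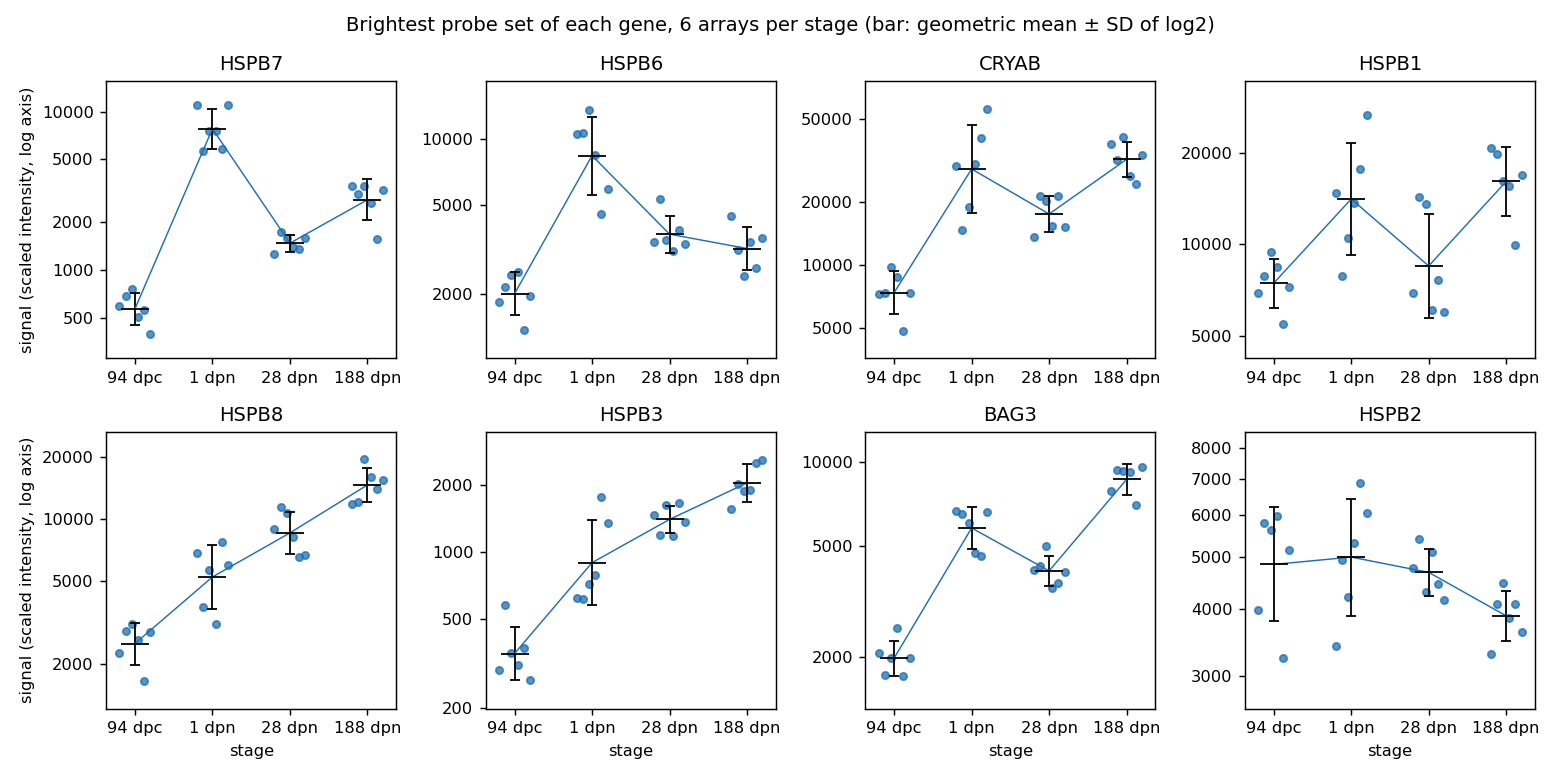
Signal of the brightest probe set of each gene (scaled intensity, log axis; axes differ between panels) at the 4 stages, with 1 point per animal and bars for the geometric mean ± SD of log2. HSPB7 runs from 396 to 757 at 94 dpc and from 5609 to 10983 at 1 dpn, while the HSPB2 stage means all lie between 3883 and 4998.

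Between 94 dpc and 1 dpn 7 of the 8 genes rose and none fell in limma, nor did any at an unadjusted p under 0.05. By probe set, 8 of 11 rose and 1 fell, where 31.0% of all tested probe sets passed the test, 10.1% higher and 20.8% lower. Animals of the 2 stages did not overlap at all in 6 of the 11 probe sets, against 13.7% of all probe sets. The shares over all probe sets include dim ones, as 39.2% of them had a mean under background. Of the members only the dimmer CRYAB probe set was under it, at 94 dpc. The median log2 difference of the 8 genes was 1.45 and that of all tested probe sets -0.15. Other marker sums moved in the same step. The skeletal muscle sum went from a median of 289277 to 449815 and the slow fibre sum (7 of 7 markers) from 114133 to 155395 up to 196450 to 325904, both without overlap. The endothelial sum (5 of 5) went from 5937 to 10908 down to 3414 to 5779, also without overlap, and the adipocyte sum (3 of 5) from 3811 to 6183 up to 6158 to 23856. No marker value was 0, and the part of these shifts in the members' differences was not tested. At 28 and 188 dpn the slow fibre medians were 295688 and 287314, the endothelial ones 6635 and 2512 and the adipocyte ones 7126 and 3215. After birth the members parted: from 1 to 28 dpn 1 gene rose (HSPB8) and 3 fell (HSPB7, HSPB6 and BAG3), by probe set 3 and 3 of 11, where 20.7% of all passed, 11.6% higher and 9.1% lower. Only the HSPB7 probe set, 1 of 11, had no overlap in that step, against 9.4% of all. From 28 to 188 dpn 5 genes rose (BAG3, HSPB1, HSPB7, CRYAB and HSPB8) and none fell, again none at an unadjusted p under 0.05, and by probe set 7 of 11, where 14.6% of all passed, 4.12% higher and 10.5% lower. Animals did not overlap in 4 of the 11, against 12.2% of all. In the step from 1 to 28 dpn, CRYAB, HSPB1 and HSPB3 also passed with 64 added before log2, after the dimmest 30% had been left out, and in a trended robust fit, whereas BAG3 and HSPB8 did not pass in a fit of those 2 stages alone (adjusted p = 0.0724 and 0.0983).

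Over the whole span, at 188 dpn against 94 dpc, 7 genes were higher and HSPB2 did not pass. Without animals 1 to 3 of 188 dpn 5 were higher, as HSPB1 (0.89, adjusted p = 0.0591) and HSPB6 (0.66, adjusted p = 0.0932) did not pass. By probe set 9 of 11 were higher, where 39.9% of all passed, 12.5% higher and 27.4% lower, and 8 of the 11 did not overlap, against 29.1% of all. In the pair 28 dpn and 94 dpc 8 of 11 probe sets were higher, where 27.8% of all passed, 10.4% higher and 17.5% lower, and 8 did not overlap, against 22.0% of all. In the pair 188 dpn and 1 dpn 6 were higher and 2 lower, where 34.9% passed, 14.1% higher and 20.8% lower, and 6 did not overlap, against 16.7% of all. The 3 comparisons with 94 dpc share the same 6 fetal arrays, as the other pairs share theirs, so their counts are not separate evidence. Under quantile normalization, which moved the median difference of all probe sets in the first step from -0.15 to 0.03 and the share of higher calls from 32.8% to 47.7%, 6 in place of 7 genes passed as higher at 1 dpn. Median centring gave a share of 59.2%. Over the whole span the share was 31.3% as deposited and 48.9% after quantile normalization, with 5 of the 8 genes higher and HSPB2 lower.

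**Figure D2:**
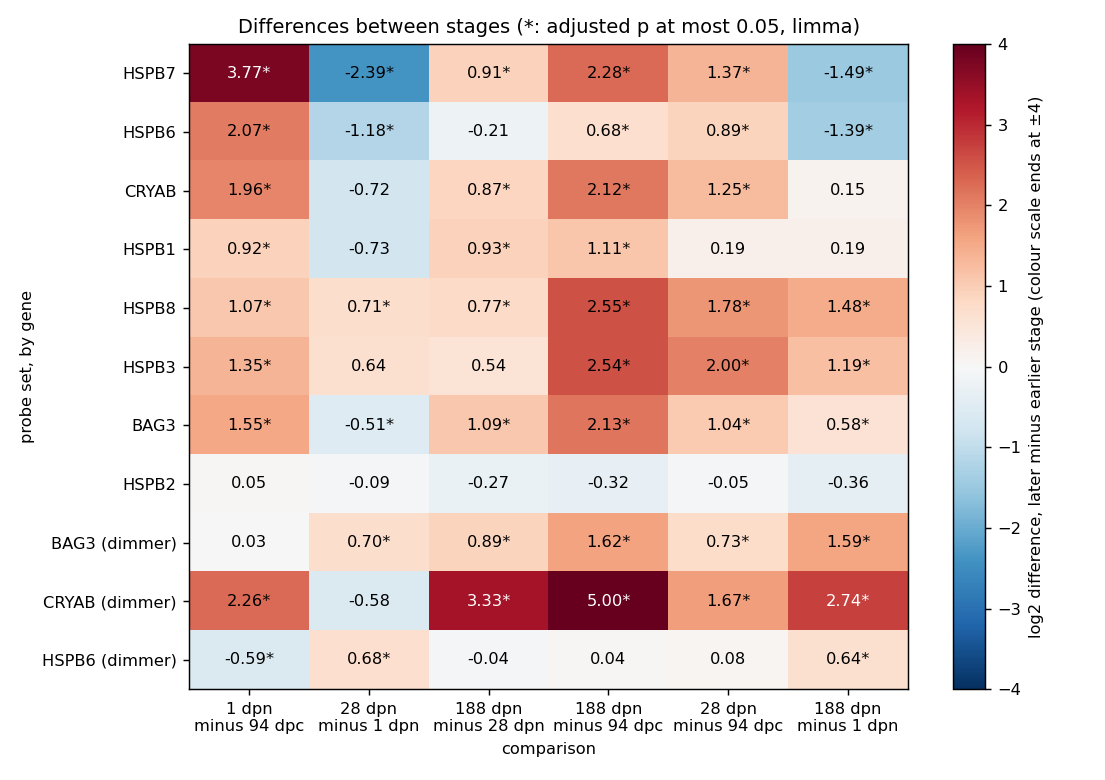
Log2 difference, later minus earlier stage, of the 11 probe sets (rows) in the 6 comparisons (columns), with an asterisk where the adjusted p was at most 0.05. The HSPB2 row holds no asterisk, and the HSPB8 row holds 6, all positive.

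HSPB7, a chaperone of heart and skeletal muscle that binds filamin C, had the widest course of the brightest probe sets. Its signal was 396 to 757 in the 6 fetal animals with a median of 578, and 5609 to 10983 with a median of 7518 at 1 dpn. It was 1259 to 1730 at 28 dpn with a median of 1496, and 1567 to 3386 with a median of 3122 at 188 dpn. The lowest newborn was thus above every animal of the other 3 stages, and the highest fetus below every postnatal animal. The difference of 3.77 ± 0.21 log2 (SE) in the first step ranked 12th from the top among all tested probe sets. All 6 pairs of stages differed, so the stages could be ordered as 94 dpc, 28 dpn, 188 dpn and 1 dpn, with 28 dpn still above 94 dpc by 1.37 ± 0.21 (limma, adjusted p = 4.34e-05) and 188 dpn below 1 dpn by -1.49 ± 0.21 (adjusted p = 9.71e-06). The rise from 28 to 188 dpn was the weakest of the neighbouring pairs, 0.91 ± 0.21 (adjusted p = 0.00541). Without animals 1 to 3 of 188 dpn, the 3 of that stage with the high hepatocyte sum, it was 0.68 and did not pass (adjusted p = 0.137). Animals 1 to 3 had 3028 to 3386, and animals 4 and 6 had 2635 and 3216. Animal 5, which also stayed in that fit, was set apart at 1567.

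HSPB6 is a small heat shock protein that is phosphorylated by cyclic nucleotide-dependent kinases and is also abundant in smooth muscle. By its brighter probe set it was likewise highest in newborns. Its signal was 1377 to 2509 at 94 dpc with a median of 2038, and 4592 to 13516 at 1 dpn with a median of 9496. At 28 dpn it was 3102 to 5352 with a median of 3467, and at 188 dpn 2391 to 4500 with a median of 3270.3. No fetal animal reached the lowest newborn, whereas newborns and animals of 28 dpn overlapped. HSPB6 rose by 2.07 ± 0.24 log2 in the first step (adjusted p = 9.73e-07) and fell by 1.18 ± 0.24 in the second (adjusted p = 0.00105), and 28 and 188 dpn did not differ beyond their spread (-0.21 ± 0.24, adjusted p = 0.627). With the mean of both HSPB6 probe sets the rise was 0.74 and the fall -0.25, which did not pass (adjusted p = 0.305), and 188 dpn was below 1 dpn by -0.38, which did not pass either (adjusted p = 0.0709, against -1.39 for the brighter probe set, which passed). Animals of 188 dpn were above fetuses by 0.68 (adjusted p = 0.0249), a call lost with that mean (0.36, adjusted p = 0.0739), after quantile normalization (0.54, adjusted p = 0.0804) and without animal 5 of 94 dpc or animal 1 of 188 dpn (0.57 and 0.58). At 1 dpn the 3 animals with the low EF1A ratio had 10525 to 13516 and the other 3 had 4592 to 8466. Without those 3 the rise was 1.61 (adjusted p = 7.42e-05) and the fall was -0.72 and did not pass (adjusted p = 0.0548). Smooth muscle markers, 5 measured of 7, summed to 13812 to 28059 up to 28 dpn and to 7355 to 9537 at 188 dpn, and their part in the HSPB6 level was not tested.

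CRYAB, αB-crystallin, binds desmin and titin and is among the most abundant chaperones of striated muscle. Its signal was 4875 to 9799 at 94 dpc with a median of 7362, and 14736 to 56128 at 1 dpn with a median of 30180.4. At 28 dpn it was 13591 to 21507 with a median of 17810 and at 188 dpn 24588 to 40921 with a median of 32716. All fetal animals lay below all postnatal ones, and the newborns spread over a 3.81-fold range, the widest of the 4 stages. Newborns 1 to 3, with the low EF1A ratio, had 14736 to 29908, and newborns 4 to 6 had 30453 to 56128, without overlap. CRYAB rose by 1.96 ± 0.26 log2 in the first step (adjusted p = 5.79e-06). The difference from 1 to 28 dpn, -0.72 ± 0.26, did not pass (adjusted p = 0.0526). It passed under quantile normalization (-0.75, adjusted p = 0.0329), without animals 1 to 3 of 1 dpn (-1.23, adjusted p = 0.00213), and without animal 5 of 94 dpc or animal 2 or 3 of 1 dpn alone (-0.72, -0.91 and -0.84). CRYAB then rose by 0.87 ± 0.26 to 188 dpn (adjusted p = 0.0255), a call lost without animals 1 to 3 of 188 dpn (0.68, adjusted p = 0.248) and also without animal 1, 4 or 6 of 28 dpn or animal 1 or 3 of 188 dpn alone (0.79 to 0.83). Newborns and animals of 188 dpn did not differ beyond their spread (0.15 ± 0.26, adjusted p = 0.696), but with the mean of both CRYAB probe sets, which differ in course, the difference was 1.45 and passed (adjusted p = 0.000259), and the rise from 28 to 188 dpn was 2.1. The difference of 28 dpn from 94 dpc passed as deposited and not after quantile normalization (0.66, adjusted p = 0.0503).

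HSPB1, the broadly expressed HSP27 that protects actin filaments, gave differences of the same sign as CRYAB in all 3 steps, with smaller values in the first step and over the whole span. Its signal was 5468 to 9391 at 94 dpc with a median of 7563, and 7851 to 26554 at 1 dpn with a median of 14219. It was 5987 to 14338 at 28 dpn with a median of 7244, and 9963 to 20722 with a median of 16511 at 188 dpn. Every neighbouring pair of stages overlapped, and 4 of the 6 animals of 28 dpn lay within the fetal range while 2 lay above it. HSPB1 rose by 0.92 ± 0.28 log2 at 1 dpn (adjusted p = 0.0139) and by 0.93 ± 0.28 from 28 to 188 dpn (adjusted p = 0.0265), while the difference between, -0.73 ± 0.28, did not pass (adjusted p = 0.0638). Fetal and 28 dpn animals did not differ beyond their spread (0.19 ± 0.28, adjusted p = 0.674), nor did 1 and 188 dpn (0.19 ± 0.28, adjusted p = 0.642). After quantile normalization the first rise was 0.41 and did not pass (adjusted p = 0.254), nor did the difference of 188 dpn from 94 dpc (0.56, adjusted p = 0.0986, against 1.11 as deposited). The rise to 188 dpn did not pass without animals 1 to 3 of that stage (0.7, adjusted p = 0.265) or without animal 1, 4, 5 or 6 of 28 dpn or animal 1 or 2 of 188 dpn alone (0.82 to 0.89). The middle difference passed without animals 1 to 3 of 1 dpn (-1.14, adjusted p = 0.0185) and without animal 2 of 1 dpn or animal 2 or 3 of 28 dpn alone (-0.9, -0.88 and -0.87).

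HSPB8, the small heat shock protein that recruits BAG3, was higher at every successive stage. Its signal was 1641 to 3114 at 94 dpc with a median of 2719, and 3106 to 7708 with a median of 5831 at 1 dpn. It was 6570.4 to 11472 at 28 dpn with a median of 8569, and 11882 to 19480.3 with a median of 14730.0 at 188 dpn. The lowest newborn just overlapped the fetal range, and animals of 28 and 188 dpn were fully apart. The 3 steps were 1.07, 0.71 and 0.77 log2, each with an SE of 0.22 (adjusted p = 0.000868, 0.0277 and 0.0226), and their sum of 2.55 ± 0.22 over the whole span was 5.85-fold. Only the first step passed in every array left out singly. The second did not pass without animal 2 or 4 of 1 dpn or animal 2 or 3 of 28 dpn (0.56 to 0.64) without animals 1 to 3 of 1 dpn (0.71, adjusted p = 0.0927) or after median centring (0.65, adjusted p = 0.053). The third did not pass without animal 5 or 6 of 28 dpn or animal 3 of 188 dpn (0.69 to 0.7) or without animals 1 to 3 of 188 dpn (0.82, adjusted p = 0.0792).

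BAG3, which links small heat shock proteins to HSP70 and to the autophagy receptor SQSTM1, spread over at most a 1.49-fold range among the animals of any stage. Its signal was 1711 to 2542 at 94 dpc with a median of 1982, and 4607 to 6698 at 1 dpn with a median of 6293. It was 3527 to 5000 at 28 dpn with a median of 4076, and 7015 to 9616 with a median of 9223 at 188 dpn. All 4 stages differed pairwise in the order 94 dpc, 28 dpn, 1 dpn and 188 dpn, and 5 of the 6 pairs did not overlap, the exception being 1 and 28 dpn. BAG3 rose by 1.55 ± 0.14 log2 (adjusted p = 6.45e-08), fell by 0.51 ± 0.14 (adjusted p = 0.0139) and rose by 1.09 ± 0.14 (adjusted p = 2.1e-05). The fall did not pass without animals 1 to 3 of 1 dpn (-0.36, adjusted p = 0.175), and with the mean of both BAG3 probe sets it turned to 0.1 (adjusted p = 0.718) while the first rise was 0.79 (adjusted p = 0.0003).

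HSPB3 and HSPB2, partners in 1 complex, did not follow each other. HSPB3 signal was 266 to 577 at 94 dpc with a median of 331, and 613 to 1768 with a median of 752 at 1 dpn. It was 1183 to 1647 at 28 dpn with a median of 1408, and 1553 to 2573 with a median of 1950.0 at 188 dpn. Fetal animals lay below all postnatal ones, and the newborn range ended above that of 28 dpn. Newborns 1 to 3, with the low EF1A ratio, had 613 to 718, and newborns 4 to 6 had 787 to 1768, without overlap. HSPB3 rose by 1.35 ± 0.24 log2 at 1 dpn (adjusted p = 0.0002), and its later steps of 0.64 ± 0.24 and 0.54 ± 0.24 did not pass singly (adjusted p = 0.0645 and 0.15), although 188 dpn was above 1 dpn by 1.19 ± 0.24 (adjusted p = 0.000525). The step from 1 to 28 dpn passed without animal 5 or 6 of 1 dpn (0.84 and 0.76), and was 0.18 without animals 1 to 3 of that stage (adjusted p = 0.724). The step from 28 to 188 dpn passed after median centring (0.81, adjusted p = 0.029) and in a fit of those 2 stages alone (0.54, adjusted p = 0.0322).

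HSPB2, a binding partner of the myotonic dystrophy kinase DMPK, had a signal of 3245 to 5954 at 94 dpc with a median of 5386, and 3413 to 6876 with a median of 5119 at 1 dpn. It was 4155 to 5404 with a median of 4615 at 28 dpn, and 3293 to 4480.4 with a median of 3965 at 188 dpn. Newborns 1 to 3, with the low EF1A ratio, had 3413 to 4937, and newborns 4 to 6 had 5301 to 6876, without overlap. Every pair of stages overlapped. Its differences in the 3 steps were 0.05, -0.09 and -0.27 log2, each with an SE of 0.18, and none of the 6 pairs passed in the deposited scaling. At 188 against 94 dpc the difference was -0.32 ± 0.18 (adjusted p = 0.162). It became -0.69 and passed after quantile normalization (adjusted p = 0.00243), and -0.43 and passed without animal 5 of 94 dpc (adjusted p = 0.0462). The difference of 188 from 1 dpn, -0.36 ± 0.18, passed without animals 1 to 3 of 1 dpn (-0.64, adjusted p = 0.0138) and without animal 1 of 1 dpn (-0.47, adjusted p = 0.0341).

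The genes with a pair of probe sets gave unequal courses. The dimmer HSPB6 probe set was 302 to 510.3 at 94 dpc with a median of 429, and 187 to 402 with a median of 287 at 1 dpn, the opposite direction to the brighter one. It fell by 0.59 ± 0.2 log2 (adjusted p = 0.0249), a call lost after quantile normalization (-0.25, adjusted p = 0.419) or median centring (-0.27, adjusted p = 0.362), in a fit of those 2 stages alone (adjusted p = 0.0955), without animals 1 to 3 of 1 dpn (-0.21, adjusted p = 0.475) and without animal 2 or 4 of 94 dpc or animal 1 or 3 of 1 dpn alone (-0.54 to -0.48). In those 3 newborns with the low EF1A ratio it was 187 to 258, against 316 to 402 in the others, while the brighter probe set was higher in them. The log2 ratio of the brighter over the dimmer HSPB6 probe set, which compares their courses and not their levels, rose by 2.66 in the first step and fell by 1.86 in the second (exact permutation test, two-sided, adjusted p = 0.0039 for each). Without the 3 newborns the ratio still moved by 1.82 and -1.02 (adjusted p = 0.0214 for each).

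The dimmer BAG3 probe set was 237 to 345 at 94 dpc and 198 to 464 at 1 dpn, a difference of 0.03 ± 0.21 log2 (adjusted p = 0.932), where the brighter one rose. It then rose where the brighter one fell, to 424 to 597 at 28 dpn (0.7 ± 0.21, adjusted p = 0.0182), and both rose to 188 dpn. That middle rise did not pass without animals 1 to 3 of 1 dpn (0.29, adjusted p = 0.397) or without animal 2 of 1 dpn (0.6, adjusted p = 0.0502). At 1 dpn the dimmer probe set was 198 to 274 in animals 1 to 3 and 359 to 464 in animals 4 to 6. The ratio of the 2 BAG3 probe sets moved by 1.52 and by -1.21 in the first steps (exact permutation test, adjusted p = 0.0039 for each), and by 0.2 in the last (adjusted p = 0.104). Without animals 1 to 3 of 1 dpn the first of these were 0.96 and -0.66.

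The dimmer CRYAB probe set was 21.7 to 96.3 at 94 dpc, with 4 of the 6 fetal arrays under background, and 166 to 355 at 1 dpn with a median of 229. It was 102 to 338 at 28 dpn with a median of 157, and 523 to 3851 at 188 dpn with a median of 1462. Against the background level it was at least 3.28-fold higher at 1 dpn (adjusted p = 0.000332) and at least 22.0-fold higher at 188 dpn than at 94 dpc (adjusted p = 3.53e-09). From 28 to 188 dpn it rose by 3.33 ± 0.43 log2 (adjusted p = 1.5e-05) where the brighter CRYAB probe set rose by 0.87, and the ratio of the brighter over the dimmer fell by 2.46 with no overlap between the stages (exact permutation test, adjusted p = 0.0039). Its array name shares a cluster number with the HSPB2 probe set, and in the Sscrofa 11.1 gene table CRYAB and HSPB2 are direct neighbours whose entries overlap. The transcript it reads is therefore uncertain, and the array's annotation assigns it to CRYAB.

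**Figure D3:**
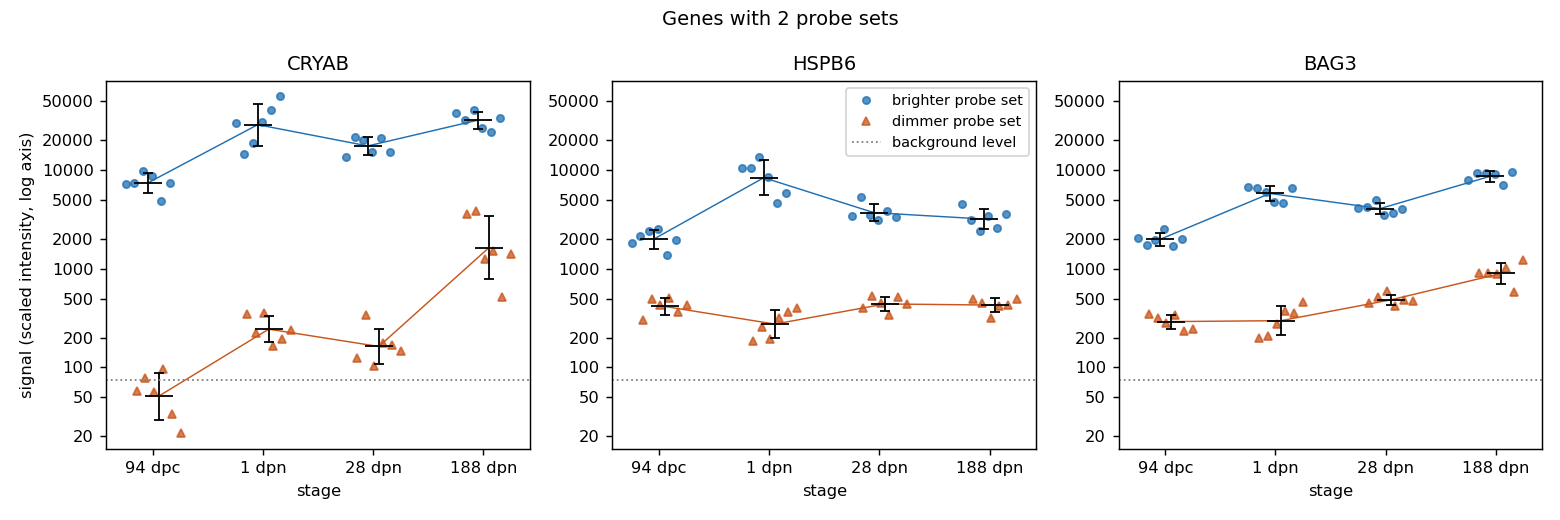
Signal (scaled intensity, log axis) of the brighter (circles) and dimmer (triangles) probe set of CRYAB, HSPB6 and BAG3 by stage, 1 point per animal, bars for the geometric mean ± SD of log2; the dotted line is the background signal of 74.7. At 1 dpn the HSPB6 probe sets move in opposite directions, and at 188 dpn the dimmer CRYAB probe set reaches 523 to 3851.

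Ratios within each array asked whether partners changed by unequal amounts, with 9 tests by exact permutation of animals between 2 stages, two-sided, for which 0.00216 is the smallest p the design allows. HSPB2 and CRYAB are neighbours that lie head to head in mammals. The log2 ratio of HSPB2 over CRYAB was -0.87 to -0.35 in fetuses and -3.22 to -1.58 in newborns, without overlap, a difference of -1.92 (adjusted p = 0.00487). It moved back by 0.62 to 28 dpn, which did not pass (adjusted p = 0.0706), and by -1.14 to 188 dpn, again without overlap (adjusted p = 0.00487). The middle difference passed after quantile normalization (0.66, adjusted p = 0.039), without animals 1 to 3 of 1 dpn (0.86, adjusted p = 0.0214) and without animal 2 of 1 dpn alone (0.81, adjusted p = 0.013).

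HSPB2 over HSPB3 went down at each step, from a median log2 ratio of 3.87 at 94 dpc to 2.51, 1.66 and 1.02. The steps of -1.31, -0.74 and -0.81 all passed (exact permutation test, adjusted p = 0.00487, 0.0162 and 0.00487), the middle one not without animals 1 to 3 of 1 dpn (-0.55, adjusted p = 0.0938). HSPB8 over BAG3 had medians of 0.32, -0.12, 1.11 and 0.75 log2 in stage order. It rose by 1.22 between 1 and 28 dpn (adjusted p = 0.00779), the step in which HSPB8 rose and BAG3 fell, or by 0.61 with the mean of the BAG3 probe sets (adjusted p = 0.0487), and its other steps of -0.48 and -0.32 did not pass (adjusted p = 0.0996 and 0.0706). The first of these was -0.66 and passed without animal 5 of 1 dpn, and the last was -0.39 or -0.38 and passed without animal 6 of 28 dpn or animal 3 of 188 dpn.

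**Figure D4:**
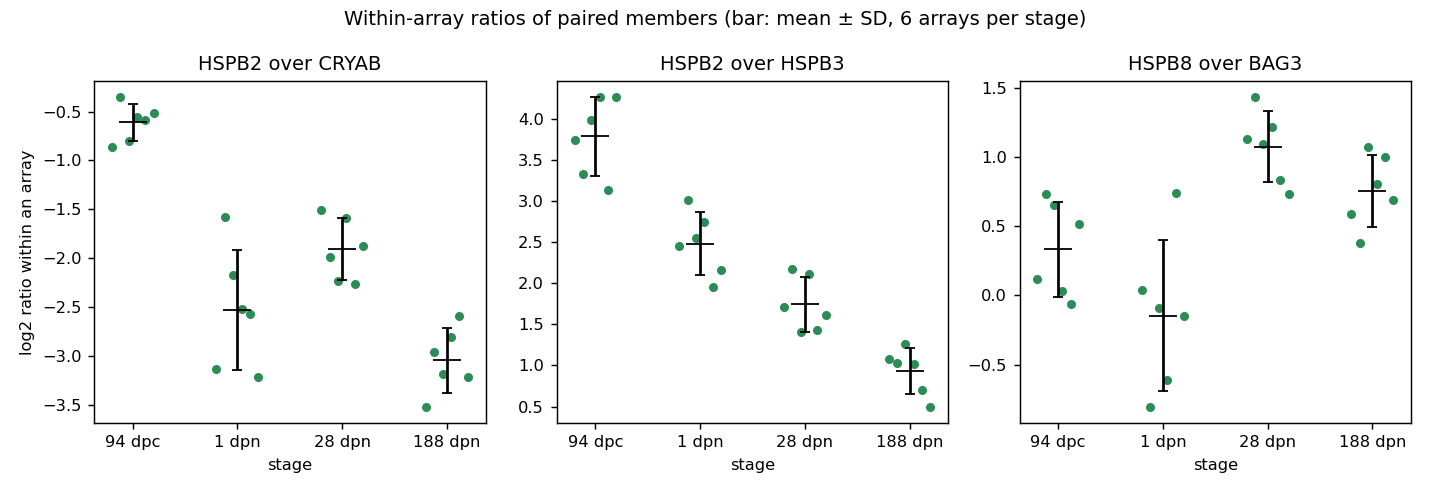
Log2 ratio of 2 members within an array, by stage, with 1 point per animal and bars for mean ± SD. HSPB2 over CRYAB is at most -1.51 in every postnatal animal and at least -0.87 in every fetus, and HSPB2 over HSPB3 goes down at each stage.

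Animals of the same stage also differed together in some members. With stage means removed, log2 HSPB1 and CRYAB correlated over the 24 animals with r = 0.85 and rho = 0.83, the single pair of 28 among the 8 genes that passed (permutation within stages, p = 1e-05 for r, the smallest these permutations can give, adjusted p = 0.00028, and adjusted p = 0.00084 for rho). These pairs were computed after the data had been seen. Leaving out the 2 animals farthest from the median of HSPB1 gave r = 0.75. Within the stages r was 0.98 at 94 dpc, 0.99 at 1 dpn, 0.75 at 28 dpn and 0.7 at 188 dpn, each over 6 animals. Animal 5 of 94 dpc was the lowest fetus in HSPB1 (5468) and CRYAB (4875). The same held for HSPB2 (3245), HSPB6 (1377), HSPB8 (1641) and BAG3 (1711), but not for HSPB3 and HSPB7. This animal was also lowest in the skeletal muscle, slow fibre, smooth muscle and endothelial sums (202370.4, 114133, 17699 and 5937), but not in the hepatocyte and adipocyte ones. Its part in the r of that stage was not tested. With the stages pooled, r was 0.78 without animals 1 to 3 of 1 dpn, 0.86 without animals 1 to 3 of 188 dpn and 0.83 after quantile normalization. Of the other 23934 tested probe sets ranked by this correlation with HSPB1, CRYAB stood at rank 2. A probe set of TNFRSF12A, the receptor of the cytokine TWEAK, was at rank 1 (r = 0.86) and one of the inducible HSP70 gene HSP70.2 at rank 4 (r = 0.81). HSPB8 and BAG3, which act as partners, correlated with r = 0.3 (adjusted p = 0.383), and HSPB2 and HSPB3 with r = 0.46 (adjusted p = 0.304).

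**Figure D5:**
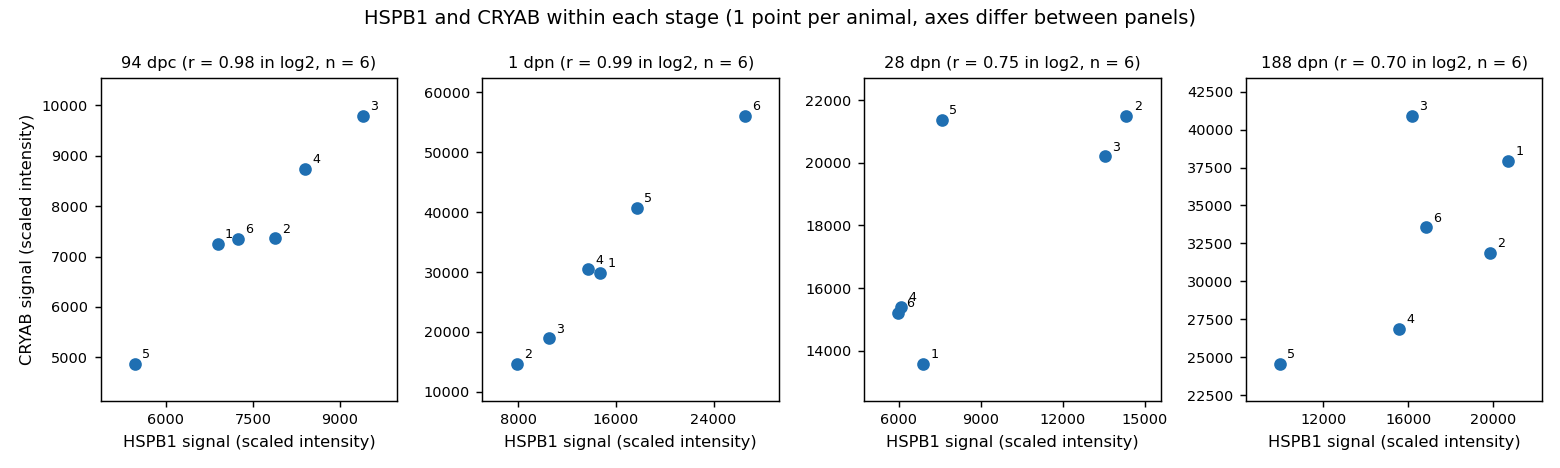
CRYAB against HSPB1 signal (scaled intensity, axes differ between panels) in the 6 animals of each stage, labelled by animal number. The points of 94 dpc and 1 dpn lie close to a line (r = 0.98 and 0.99 on log2 values) and those of 28 and 188 dpn are more spread (0.75 and 0.7).

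The other chaperone genes were counted by list. Of the HSP70 genes and their co-chaperones 17 of 24 were measured, and 6 rose and 3 fell at 1 dpn, where 10.1% of all probe sets rose and 20.8% fell. DNAJB6, a J-domain protein of the Z-disc, had the largest difference among the risers, from a mean signal of 913 to 3292 (1.85 ± 0.21 log2, adjusted p = 1.23e-06), then fell by 1.11 ± 0.21 to 28 dpn (adjusted p = 0.000821) and rose by 0.91 ± 0.21 to 188 dpn (adjusted p = 0.00557), the order of changes seen in BAG3 and HSPB7; the last step did not pass without animals 1 to 3 of 188 dpn (0.88, adjusted p = 0.058). HSPA8, the constitutive HSP70, rose by 0.79 ± 0.14 (adjusted p = 0.000232), which after quantile normalization was 0.14 and did not pass (adjusted p = 0.516). The fallers at 1 dpn included HSPA13 (-1.31 ± 0.27, limma, adjusted p = 0.000876) and DNAJA1 (-1.07 ± 0.25, adjusted p = 0.00262). DNAJA1 did not pass without animals 1 to 3 of 1 dpn (-0.69, adjusted p = 0.0818). From 1 to 28 dpn 3 of the 17 rose and 2 fell, counts near the 11.6% and 9.1% over all probe sets. The risers included HSPH1 (1.23 ± 0.31, limma, adjusted p = 0.00693) and HSPA4 (1.17 ± 0.19, adjusted p = 0.000193). Beside DNAJB6 the faller was HSPBP1 (-1.17 ± 0.27, adjusted p = 0.00388). From 28 to 188 dpn 5 rose and 1 fell, against 4.12% and 10.5% over all, or 1 and 1 without animals 1 to 3 of 188 dpn. The faller was DNAJA4, whose difference was the largest of the list in that step (-1.7 ± 0.31, limma, adjusted p = 0.000536).

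Mitochondrial and chaperonin folding genes, 11 of 14 measured, gave 5 higher and none lower at 1 dpn, none higher and 3 lower at 28 dpn, and none in either direction at 188 dpn (limma; at an unadjusted p under 0.05, 5 and 0, 1 and 5, and 0 and 0). Over all probe sets 10.1% rose and 20.8% fell in the first of these steps and 11.6% and 9.1% in the second. The first count depended on the scaling, with 4 higher and 3 lower after quantile normalization and 8 and 0 after median centring. The fallers were the mitochondrial chaperones HSPE1, HSPA9 and HSPD1. They had risen by 1.41 ± 0.16, 1.96 ± 0.22 and 1.17 ± 0.19 log2 and fell by 1.47 ± 0.16, 1.07 ± 0.22 and 0.89 ± 0.19. HSPB7 and the brighter HSPB6 probe set also peaked in newborns, whereas the dimmer HSPB6 probe set was lowest there. After quantile normalization the rises of HSPE1, HSPA9 and HSPD1 were 0.68, 1.56 and 0.8, and all passed. Without animals 1 to 3 of 1 dpn the falls of HSPA9 and HSPD1 were both -0.7, and that of HSPD1 did not pass (adjusted p = 0.057). In the HSP90 system, 12 of 14 measured, 4 rose at 1 dpn and none fell (5 and 0 at an unadjusted p under 0.05), with 1 left without animal 5 of 94 dpc and 3 higher and 1 lower after quantile normalization. HSP90AA1, the inducible cytosolic HSP90, and STIP1, which links HSP70 to HSP90, rose by 0.38 and 0.43 (adjusted p = 0.0485 and 0.0315) as deposited and were at -0.21 and 0.2 after quantile normalization, where neither passed (adjusted p = 0.301 and 0.337). FKBP5, a glucocorticoid-induced co-chaperone, rose from 111 to 699 (2.65 ± 0.44, adjusted p = 8.82e-05). Of the heat shock factors and regulators, 6 of 7 measured, 4 rose and 1 fell, or 1 and 1 without animals 1 to 3 of 1 dpn and 4 and 0 after quantile normalization. VCP, the segregase ATPase, rose by 0.99 ± 0.16 (adjusted p = 5.41e-05), and HSF1 by 0.47 ± 0.16 (adjusted p = 0.0288), a call lost without animals 1 to 3 of 1 dpn (0.38, adjusted p = 0.175). HSF2 fell by 0.66 ± 0.2 (adjusted p = 0.0135), a call lost after quantile normalization (-0.49, adjusted p = 0.0631) and median centring (-0.33, adjusted p = 0.2).

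Among partners of chaperone-assisted selective autophagy, 8 of 12 measured, 3 rose and none fell at 1 dpn (4 and 0 at an unadjusted p under 0.05), with 1 left after quantile normalization. Over all probe sets 10.1% rose and 20.8% fell in that step. SQSTM1, the receptor that hands ubiquitinated cargo to the autophagosome, rose by 1.42 ± 0.27 log2 (adjusted p = 0.000335) and again by 1.43 ± 0.27 from 28 to 188 dpn (adjusted p = 0.000813), the steps in which BAG3 rose; the first was 0.82 without animals 1 to 3 of 1 dpn (adjusted p = 0.02). STUB1, the ligase of the complex, rose in the middle step by 0.99 ± 0.22 (adjusted p = 0.0024), as HSPB8 did, and like it did not pass without those 3 (0.57, adjusted p = 0.108). In this list 2 genes rose and 1 fell from 28 to 188 dpn in limma, against 4.12% and 10.5% of all probe sets. The risers were SQSTM1 and MAP1LC3B (0.63 ± 0.17, adjusted p = 0.0124). Without animals 1 to 3 of 188 dpn MAP1LC3B did not pass (0.6, adjusted p = 0.0954) and SQSTM1 did (1.56, adjusted p = 0.0075). In the same step the smooth muscle median went from 17751 to 8423 and the endothelial one from 6635 to 2512. The faller was FLNA, filamin A, a different gene from the filamin C that HSPB7 binds (-0.81 ± 0.22, adjusted p = 0.0161). The part of the marker shifts in the FLNA fall was not tested. The FLNA call was lost after quantile normalization (-0.6, adjusted p = 0.108) and without animals 1 to 3 of 188 dpn (-0.76, adjusted p = 0.0978). Of the filament and sarcomere genes that small heat shock proteins bind, 12 of 17 measured, 5 rose and 1 fell at 1 dpn, but after quantile normalization none rose and 3 fell, so their direction depended on the scaling. The faller in both was SYNM, the desmin-binding filament protein synemin, which went from 2720 to 734 (-1.89 ± 0.3, adjusted p = 5.53e-05), then rose by 2.61 ± 0.3 and 1.48 ± 0.3; without animals 1 to 3 of 1 dpn its fall was -1.07 (adjusted p = 0.000521). The median log2 differences of these 6 lists at 1 dpn were 0.25 to 0.48, against 1.45 for the 8 members and -0.15 for all probe sets. Of the other small heat shock proteins, CRYAA, HSPB9 and ODF1, only ODF1 was measured, with a mean under background at all 4 stages.

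The genes whose course over the 24 arrays lay closest to each member were found by the root mean square difference of log2 values centred per probe set, among 8120 candidate probe sets with a single symbol. HSPB6 lay closest to MPC2, a subunit of the mitochondrial pyruvate carrier (0.31). HSPB8 lay closest to VAPA (0.33), BAG3 to JTB (0.27), HSPB3 to CYB5R1 (0.35), HSPB2 to CHMP2A (0.19) and HSPB1 to SMG5 (0.4). For CRYAB it was HOMER2 (0.42), followed by the titin-binding TCAP (0.45). For HSPB7, which had the widest course, the nearest was FDX1, mitochondrial ferredoxin, at 0.68. Because this distance grows with the size of a gene's changes, it does not rank members by how particular their courses are. Among the members themselves HSPB3 and HSPB8 were each other's nearest (0.45), and CRYAB and BAG3 likewise (0.46).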

How the data were processed

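Total RNA (0.5 µg per sample) was labelled and hybridised to Affymetrix Porcine Genome arrays, per the labels' protocols. The authors deposited intensity on a linear scale, 1 value for each probe set on each array, made with GCOS 1.1.1, per the submitters' processing notes. The scaling settings are not given in the sources used here. The trimmed mean (2% off either end) ran from 498 to 499 across arrays. Array medians were 109 to 188, and the number of arrays limits the precision.

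Of 24118 probe sets, 183 controls were left out and 23935 tested without a filter, on log2 of the deposited values with no added constant. limma 3.58.1 (lmFit, eBayes, R 4.3.3) fitted 4 stage means with 20 residual degrees of freedom, with two-sided p-values adjusted by Benjamini-Hochberg across those probe sets; calls were made at 0.05. Background was the 95th percentile of 17 Tag controls. The script recovered known changes when tested on simulated data. Within-array ratios used exact permutation (scipy 1.17.1), adjusted over 9 tests. The brighter to dimmer ratios form another family of 9. Correlations used 100000 permutations within stages, adjusted over 28 pairs.

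Genes eligible to be named were all members, up to 4 genes per list and comparison with the largest differences past the threshold and the brightest, and the 3 genes most like each member. Only some of the eligible list genes and most alike genes are printed, and no rule set the choice among them. TNFRSF12A and HSP70.2 were chosen after their values were seen. Members and lists were chosen with earlier results of these data known. Member symbols come from the platform annotation. Lists were matched on the RefSeq symbol of the same gene identifier, found for 9961 of 10069 probe sets with a single symbol. The rest kept the platform symbol. The Sscrofa 11.1 gene table was used only for the neighbours CRYAB and HSPB2, and no coordinates are printed. Alternatives covered normalization, added constants, filters, single arrays and array sets. Mother, sex and array batch are not in the labels and could not be modelled.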

Additional observations from a re-analysis of the deposited data

Results flagged for a closer look

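Each of the 11 probe sets was examined on log2 values in each of the 4 stages for an animal set apart from the other 5 by a gap that is large against the whole range, 44 groups in all, of which 2 gave such an animal. Chance alone flags about 1 in 20 groups. HSPB7 in animal 5 of 188 dpn had a signal of 1567 against 2635 to 3386 in the others, a gap of 0.675 of the log2 range. The dimmer HSPB6 probe set in animal 3 of 188 dpn had a signal of 315 against 425 to 495, a gap of 0.662 of the log2 range.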

How the results depend on the processing

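For the 66 member results (11 probe sets in 6 comparisons), 655 of 708 values under other settings kept their direction and side of the threshold, 30 lost and 22 gained a call, and 1 turned (BAG3 from 1 to 28 dpn with the mean of its probe sets, 0.1). Leaving out single arrays kept 1549 of 1584. From 1 to 28 dpn, 6 member probe sets passed, and 2 with only those stages, 3 without animals 1 to 3 of 1 dpn and 2 at a threshold of 0.01. In genes it was 4, and 7 with 64 added before log2, without the dimmest 30% or with a trended robust fit, and 2 with only those stages, with the mean of all probe sets or at 0.01. From 28 to 188 dpn, 7 probe sets and 5 genes passed, and 3 and 1 without animals 1 to 3 of 188 dpn and 4 and 2 at 0.01; leaving out 1 array gave 4 to 7 probe sets and 2 to 5 genes, the fewest without animal 6 of 28 dpn, and 3 genes without animal 1, 4 or 5 of 28 dpn or animal 1 or 3 of 188 dpn. The ratio HSPB2 over CRYAB from 1 to 28 dpn was 0.66 after quantile normalization, 0.86 without animals 1 to 3 of 1 dpn and 0.48 to 0.81 without single arrays, and HSPB2 over HSPB3 was -0.55 without those 3. HSPB8 over BAG3 was -0.66 to -0.35 in the first step and -0.39 to -0.24 in the last without single arrays. Pairs of members correlated within stages numbered 1, and 2 after quantile normalization or without animal 5 of 94 dpc and 4 without animals 1 to 3 of 1 dpn. No paired analysis was possible because replicates were numbered in accession order and the labels give no number that stages share. Signal over background limits only the dimmer CRYAB probe set at 94 dpc.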
